A study of Mus musculus with 4 samples.

Results

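The 10 genes described here are widely used markers of endothelial cells, the cells that line blood vessels: Pecam1, Cdh5, Kdr, Flt1, Emcn, Egfl7, Vwf, Aplnr, Apln and Plvap. They were taken by symbol from the 21885 genes of a spatial transcriptomics series on the infarcted mouse heart, and all 10 were found. Polyadenylated RNA was captured with 10x Genomics Visium arrays, in which each spot can cover several cells, on 4 sections from 4 hearts: 1 control heart, 1 heart taken 3 days post infarction (3 dpi), and a pair of hearts (n = 2) taken at 5 dpi. All mice carried the Collagen1a1-GFP+ genotype, a fluorescent reporter of a fibroblast collagen gene, and were 8 to 12 weeks old. Infarction was caused by ligation of the left anterior descending coronary artery, and the control was a healthy heart. The control and the 3 dpi section are labelled female, and the 5 dpi sections are labelled 1 female and 1 male. Y-linked genes had 704 UMIs (unique molecular identifiers, counts of captured molecules) in the female-labelled 5 dpi section and 1 in the male-labelled section, so the 5 dpi sections are named below only by their labels. After filtering, 5845 spots remained, between 1146 and 1741 per section, with 6250183 to 11010109 UMIs per section. The 10 genes had 2793 UMIs in the control, 7053 at 3 dpi, 7724 in the female-labelled 5 dpi section and 7018 in the male-labelled 5 dpi section, 24588 in all. The mitochondrial share of UMIs was 40.1% in the control and 13.3% to 21.4% in the infarcted sections, and all levels below are therefore UMIs scaled to a fixed total (CPM) taken outside mitochondrially encoded genes.

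The heart muscle is served by a dense bed of capillaries, and coronary occlusion removes flow from the capillaries downstream. Vessels then regrow into the healing infarct by sprouting from those that survive. Pecam1 and Cdh5 encode adhesion molecules of the junctions between endothelial cells. Egfl7 encodes a secreted protein of the vessel wall matrix, and Emcn a sialomucin of capillaries and veins. Kdr encodes the main signalling receptor for vascular endothelial growth factor A (VEGF-A), and Flt1 a receptor that binds the same ligand and also exists as a soluble decoy. Apln encodes the peptide apelin, which is made by sprouting tip cells, and Aplnr its receptor. Vwf encodes von Willebrand factor, which is stored by endothelial cells and platelets. Plvap encodes the protein of the diaphragms that span caveolae and fenestrae, and it is normally sparse in the continuous capillaries of the heart. The 10 genes can move together, when a spot holds more or fewer endothelial cells, or apart, when those cells change state. In spots, fewer endothelial cells and less of a transcript per cell cannot be told apart.

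RefSeq promoter sequences (GRCm38.p6, the assembly that the labels name as mm10) were at hand for 5 of the 10 genes. The 250 bases before the start are shown for the VEGF receptors, the members of 1 pathway that differed between spots in the same direction below, and for Apln, the gene whose pattern differed between the 3 dpi heart and the 5 dpi hearts. Capitals mark the letters CCGGAA on either strand (TTCCGG on the printed strand). They are a strict form of the motif that ETS factors of endothelial cells bind, and shorter forms such as GGAA were not searched. The Kdr promoter lies on chr5:75978456-75978705, minus strand, the Flt1 promoter on chr5:147726012-147726261, minus strand, and the Apln promoter on chrX:48034854-48035103, minus strand.
Kdr: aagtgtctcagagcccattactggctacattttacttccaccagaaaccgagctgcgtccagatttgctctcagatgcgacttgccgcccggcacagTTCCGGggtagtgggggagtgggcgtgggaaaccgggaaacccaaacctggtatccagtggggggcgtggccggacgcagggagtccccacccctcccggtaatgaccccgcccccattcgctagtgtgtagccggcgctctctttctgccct
Flt1: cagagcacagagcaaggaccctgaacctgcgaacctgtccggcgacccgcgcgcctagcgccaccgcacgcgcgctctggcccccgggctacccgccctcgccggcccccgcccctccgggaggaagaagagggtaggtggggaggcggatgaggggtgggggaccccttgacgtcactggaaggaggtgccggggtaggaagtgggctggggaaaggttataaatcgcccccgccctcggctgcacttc
Apln: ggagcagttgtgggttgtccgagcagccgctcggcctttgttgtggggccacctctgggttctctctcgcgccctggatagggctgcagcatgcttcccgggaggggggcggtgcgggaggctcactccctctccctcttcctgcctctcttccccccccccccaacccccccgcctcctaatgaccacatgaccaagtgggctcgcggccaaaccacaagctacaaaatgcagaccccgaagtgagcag
The Kdr window held 1 match to CCGGAA, and the Flt1 and Apln windows held 0, although GGAA on either strand occurs in both. Of 32851 mouse promoter windows of this length, 12.0% held CCGGAA. The letters ACGTG on either strand, a form of the hypoxia response core, were in 16.6% of all windows and in 0 of those at hand for the members. The form GCGTG, which the printed Kdr window holds, was not searched. These matches are letters in a window only.

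Across whole sections the summed level of the 10 genes in CPM differed little, while single members went opposite ways. The sum was 746 CPM in the control, 842 at 3 dpi, 810 in the female-labelled 5 dpi section and 844 in the male-labelled section. Per 100 spots it was 244 UMIs in the control and 405, 503 and 493 in the infarcted sections, which had more UMIs per spot. Plvap was at 7.75 CPM (29 UMIs, exact 95% Poisson interval 5.19 to 11.1) in the control and at 46.3, 73.2 and 60.1 CPM in the 3 infarcted sections. This was 5.98-, 9.44- and 7.76-fold above the control. Kdr took the opposite course, with a control level of 122 CPM, 89.6 CPM at 3 dpi, and 56.2 and 69.8 CPM in the 5 dpi hearts, so that the control was 1.36-, 2.17- and 1.75-fold above the infarcted sections. Counted per 100 spots Kdr did not show this course, with 39.8 UMIs in the control, 43.1 at 3 dpi and 34.9 and 40.8 in the 5 dpi hearts. For both genes the CPM interval of the control did not overlap that of any infarcted section. These intervals cover counting error only, and injury against control was not tested, as there was 1 control heart.

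Aplnr was at 45.7 CPM in the control and at 72.8, 71.2 and 77.1 CPM in the 3 infarcted sections, and thus 1.56- to 1.69-fold higher. Its ligand Apln had a control level of 11.0 CPM, 21.1 CPM at 3 dpi, and 12.6 and 22.0 CPM in the 5 dpi hearts, where the female-labelled section overlapped the control within counting error. Vwf was at 32.1 CPM in the control and 37.4 at 3 dpi, and the 5 dpi sections differed from each other, with 71.8 CPM in the female-labelled section and 48.2 in the male-labelled section. Emcn had a control level of 50.2 CPM, 57.1 CPM at 3 dpi and 68.4 ± 2.63 (SD, n = 2) at 5 dpi. Pecam1, Cdh5, Egfl7 and Flt1 stayed within 1.5-fold of the control in every section. Pecam1 had 92.5 CPM in the control and 102 to 118 after infarction, Cdh5 142 and 112 to 130, Egfl7 200 and 199 to 231, and Flt1 43.3 and 37.8 to 56.7. By the rule that all 3 infarcted sections lie at least 1.5-fold on the same side of the control, 2 of the 10 genes were higher, Aplnr and Plvap, and 0 were lower. Over the 10259 genes with a mean of at least 5 CPM, 38.7% were higher and 9.63% lower by the same rule. With cardiomyocyte genes taken out of the total, only Plvap met the rule. With UMIs per spot in place of CPM 8 of the 10 genes were higher. The share of all genes by that rule is not at hand, so nothing particular to the members is read from it.

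**Figure D1:**
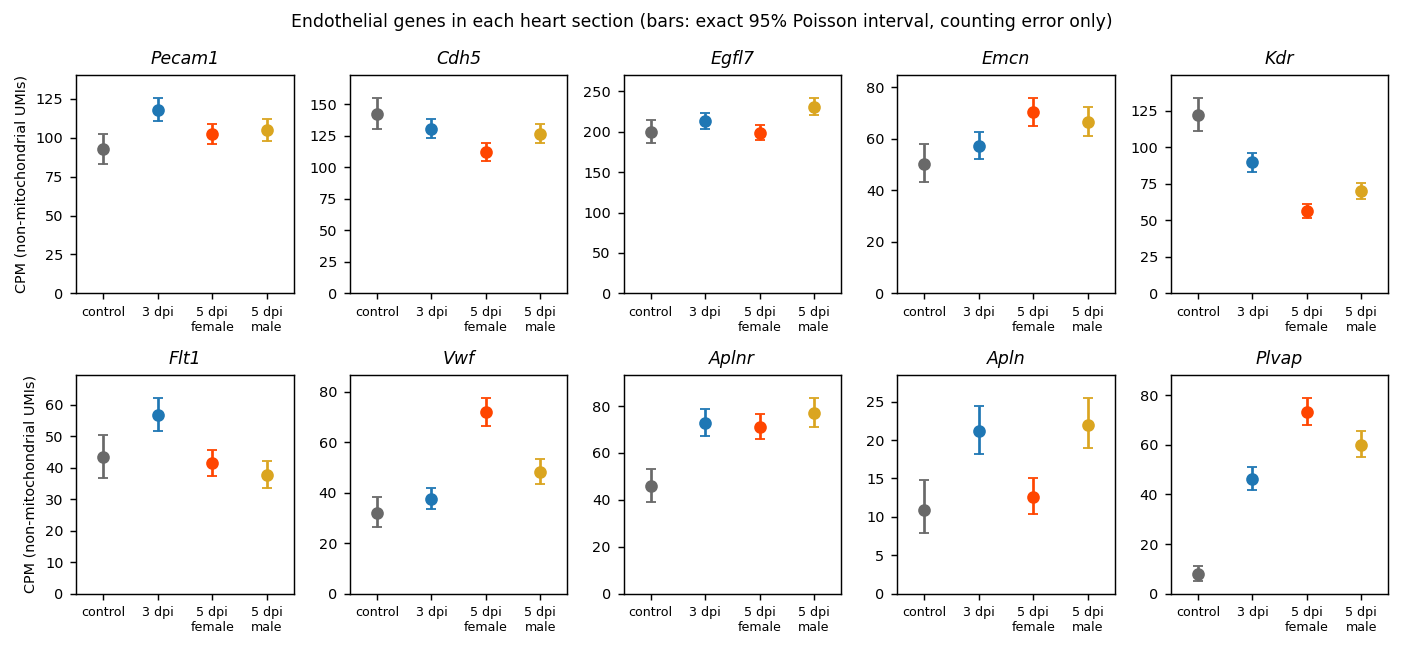
Level of each of the 10 endothelial genes in each section, in CPM on a linear axis from 0, with bars for the exact 95% Poisson interval. Plvap is at 7.75 CPM in the control and between 46.3 and 73.2 in the infarcted sections, and Kdr is at 122 CPM in the control and between 56.2 and 89.6 after infarction.

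To place these differences in the tissue, spots were ordered by r, the share of 12 cardiomyocyte genes (Myh6, Tnnt2, Tnni3, Actc1, Myl2, Myl3, Pln, Mb, Ckm, Tcap, Ryr2 and Ttn) in their UMIs, divided by the 90th percentile of that share in their own section. Spots with r under 0.25 are called muscle-poor, 0.25 to 0.5 intermediate, 0.5 to 0.75 mixed, and 0.75 or more muscle-rich. The control had 1099 muscle-rich spots of 1146 and 0 muscle-poor spots. The muscle-poor spots numbered 516 at 3 dpi, 952 in the female-labelled 5 dpi section and 591 in the male-labelled section, against 497, 286 and 509 muscle-rich spots. Muscle-poor spots held more RNA, with 6234 to 7123 non-mitochondrial UMIs per spot against 3541 to 4491 in muscle-rich spots of the same sections. UMIs were summed per class and section, and classes were compared over the 3 infarcted hearts with edgeR's quasi-likelihood test, TMM scaling, the section as a block and Benjamini-Hochberg adjustment over 10521 genes. Adjusted p-values below come from such fits on 3 hearts unless other sections or no block are named, and the classes of a section come from the same heart.

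Kdr was lower in muscle-poor spots, and lay near the control level in muscle-rich spots. In muscle-rich spots it was at 123 CPM at 3 dpi, 123 in the female-labelled 5 dpi section and 113 in the male-labelled section, against 121 in muscle-rich spots of the control. In muscle-poor spots it was at 73.1, 39.6 and 43.5 CPM. The classes did not overlap, and the log2 fold change of muscle-poor over muscle-rich spots was -1.67 (SE 0.16, adjusted p = 2.35e-08). Plvap was the mirror image, at 64.0, 76.6 and 87.9 CPM in muscle-poor spots against 21.0, 40.3 and 18.8 CPM in muscle-rich spots, a log2 fold change of 1.17 (SE 0.19, adjusted p = 3.06e-05). Unlike Kdr, Plvap was also above the control in muscle-rich spots, where those of the 3 infarcted sections had 2.62, 5.02 and 2.34 times the 8.02 CPM of muscle-rich control spots. These control comparisons have no test. Counted per spot, Plvap was 5.36, 3.34 and 7.41 times higher in muscle-poor than in muscle-rich spots. Kdr per spot was then 1.05 times at 3 dpi and 0.567 and 0.609 times at 5 dpi, so that its 3 dpi difference was not seen per spot.

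The other VEGF receptor and the junction genes were lower in muscle-poor spots by the fit, by smaller amounts that varied between hearts. Flt1 was at 54.4, 30.0 and 35.4 CPM in muscle-poor spots of the 3 dpi section and the female- and male-labelled 5 dpi sections, against 56.2, 75.3 and 34.6 in muscle-rich spots. Its log2 fold change was -0.87 (SE 0.19, adjusted p = 7.52e-04), and in CPM only the female-labelled section showed the difference. Pecam1 was at 133, 81.1 and 103 CPM in muscle-poor spots against 114, 163 and 105 in muscle-rich spots, with a log2 fold change of -0.67 (SE 0.17, adjusted p = 0.00251). Cdh5 was at 147, 104 and 122 CPM against 120, 137 and 132, with -0.50 (SE 0.15, adjusted p = 0.00827). The levels of these 3 genes overlapped between classes in CPM. Counted per spot the values were higher in muscle-poor spots in most sections, and the direction differed from that in CPM in both 5 dpi sections for Cdh5, in the male-labelled section for Pecam1 and at 3 dpi for Flt1. In the 3 dpi section and the female- and male-labelled 5 dpi sections, Cdh5 was 2.15, 1.33 and 1.46 times as high in muscle-poor as in muscle-rich spots, Pecam1 2.06, 0.874 and 1.56 times, and Flt1 1.70, 0.699 and 1.62 times. TMM scaling sets a typical gene near 0, and the median log2 fold change of all genes tested was 0.09 with TMM and 0.52 with the total UMIs alone. With total UMIs alone the adjusted p was 0.0683 for Flt1, 0.251 for Pecam1 and 0.714 for Cdh5. Without the female-labelled 5 dpi section it was 0.0517, 0.0890 and 0.108, and Cdh5 also missed the threshold without the male-labelled section (adjusted p = 0.0781).

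The remaining 5 genes did not pass the test between muscle-poor and muscle-rich spots. Egfl7 was at 242, 179 and 240 CPM in muscle-poor spots and at 180, 237 and 200 in muscle-rich spots (log2 fold change -0.32, SE 0.14, adjusted p = 0.0547), and it was called lower under 5 of 12 alternatives. Emcn was at 66.5, 66.1 and 70.3 against 43.2, 77.0 and 52.9 CPM (log2 fold change -0.16, SE 0.15). Aplnr was at 78.6, 67.9 and 79.6 against 56.2, 69.2 and 60.8 CPM (log2 fold change -0.14, SE 0.14). Its muscle-rich spots were above the 46.2 CPM of muscle-rich control spots in all 3 sections. At 3 dpi and in the male-labelled section they overlapped that control level within counting error. Vwf had no common direction, with 32.0, 62.8 and 63.0 CPM in muscle-poor spots and 46.0, 92.8 and 16.6 in muscle-rich spots (log2 fold change -0.25, SE 0.29). Without the male-labelled section Vwf was called lower, at -0.95 (adjusted p = 0.00120). Apln, given by section below, was called lower under 1 of 12 alternatives and changed sign under 5. In all, 1 of the 10 genes was higher and 4 were lower in muscle-poor spots. Over all genes tested 30.8% were higher and 27.1% lower, and with total UMIs alone the split of all genes moved to 5379 higher and 1870 lower. Under that scaling Plvap remained the only member called higher and Kdr the only member called lower. Zones drawn by position, with connected infarct spots against spots more than 4 steps away, gave a Kdr log2 fold change of -1.48 and a Plvap log2 fold change of 1.11, both past the threshold.

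**Figure D2:**
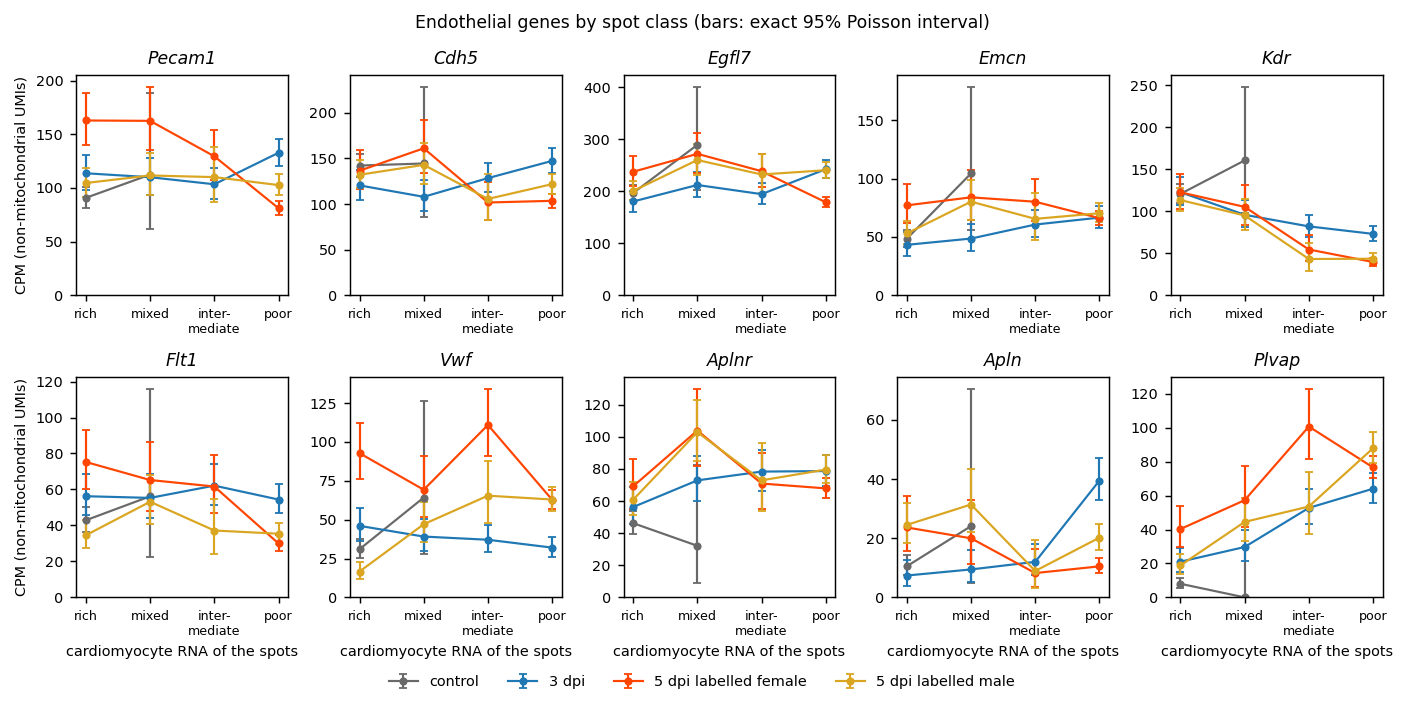
Level of each gene by spot class, from muscle-rich to muscle-poor spots, as 1 line per section, in CPM with exact 95% Poisson intervals (classes of at least 20 spots). Kdr is lower and Plvap higher in muscle-poor than in muscle-rich spots of each infarcted section, Apln is high in muscle-poor spots at 3 dpi only (39.5 CPM), and Vwf follows a different course in each section.

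**Figure D3:**
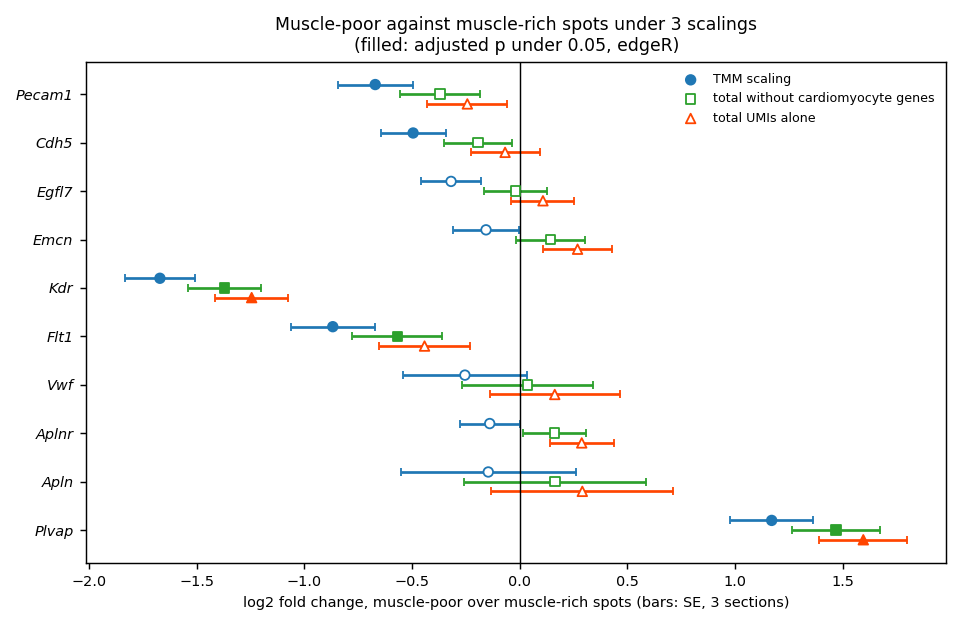
Log2 fold change of muscle-poor over muscle-rich spots for each gene, with SE from 3 hearts, under TMM scaling, the total without cardiomyocyte genes and total UMIs alone, filled where the adjusted p is under 0.05. Kdr and Plvap pass under all 3 scalings. Pecam1 and Cdh5 pass only with TMM scaling.

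The differences of Kdr and Plvap were also present in spots of intermediate muscle content. Between intermediate and muscle-rich spots Plvap was higher by 1.17 (SE 0.22, adjusted p = 3.00e-04) and Kdr lower at -1.25 (SE 0.18, adjusted p = 2.11e-05) on the log2 scale. Cdh5 was also lower, at -0.47 (SE 0.16, adjusted p = 0.0360), a call lost under 6 of 11 alternatives. The background in that comparison was 14.8% of genes higher and 15.5% lower, against 1 and 2 of the 10 members. Between muscle-poor and intermediate spots, where 11.5% of genes were higher and 14.8% lower, Flt1 alone of the 10 was called, lower at -0.61 (SE 0.21, adjusted p = 0.0336). That call was also lost under 6 of 11 alternatives, the female-labelled section left out among them. Plvap differed by 0.00 (SE 0.18) between these classes. Among the members not called in these comparisons, Pecam1, Flt1, Emcn, Egfl7, Vwf, Aplnr and Apln lay between -1.09 (Apln) and 0.23 (Vwf) in intermediate against muscle-rich spots. Pecam1, Cdh5, Kdr, Emcn, Egfl7, Vwf, Aplnr and Apln lay between -0.49 (Vwf) and 0.94 (Apln) in muscle-poor against intermediate spots.

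A measure that does not depend on the total RNA of a spot is the share of each gene among the UMIs of the 10 genes. In muscle-rich spots Kdr made up 16.0%, 11.8% and 14.9% of these UMIs in the 3 dpi section and the female- and male-labelled 5 dpi sections. It made up 16.4% in muscle-rich control spots, and only the interval of the female-labelled section did not overlap that of the control. In muscle-poor spots it made up 7.85%, 5.52% and 5.03%. Plvap went from 2.74%, 3.88% and 2.48% in muscle-rich to 6.88%, 10.7% and 10.2% in muscle-poor spots, and was at 1.09% in the control. Exact binomial 95% intervals of the classes did not overlap for either gene in any section. Over whole sections there were 6.36 Plvap UMIs for every 100 Kdr UMIs in the control. In muscle-rich spots of the infarcted sections the figure was 17.1, 32.9 and 16.6, and in muscle-poor spots 87.7, 194 and 202. Of the 10 genes, 4 had a higher share in muscle-poor spots in all 3 sections and 3 a lower share.

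**Figure D4:**
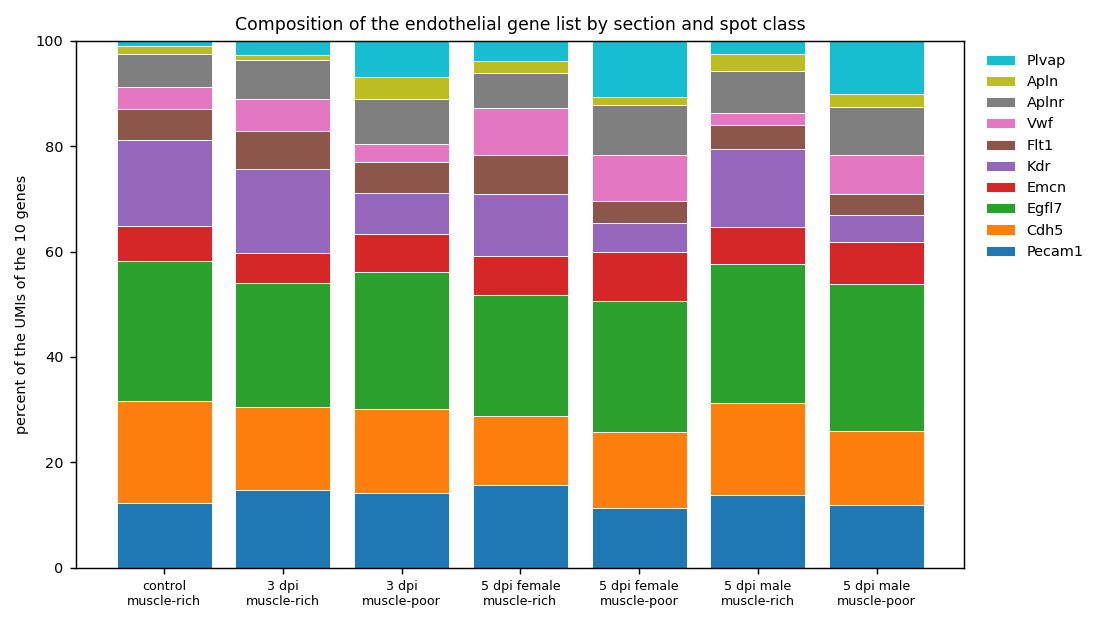
Share of each gene in the UMIs of the 10 endothelial genes, as stacked percentages, for muscle-rich control spots and for muscle-rich and muscle-poor spots of each infarcted section. The Kdr segment is 11.8% to 16.4% in muscle-rich and 5.03% to 7.85% in muscle-poor spots, and the Plvap segment is 1.09% to 3.88% and 6.88% to 10.7%.

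Apln was the member whose pattern differed between the 3 dpi heart and the 5 dpi hearts. At 3 dpi it was at 39.5 CPM in muscle-poor and 7.39 in muscle-rich spots, a 5.35-fold difference. At 5 dpi it was at 10.5 against 23.6 CPM in the female-labelled section, where the order was the other way. In the male-labelled section it was at 20.2 against 24.5 CPM (85 and 56 UMIs), which overlapped within counting error. Per spot, Apln in muscle-poor spots was 9.41 times the level of muscle-rich spots at 3 dpi, and 0.779 and 1.31 times at 5 dpi. The 3 dpi arm is 1 heart, assumed in the fit to vary like the 5 dpi hearts, which alone give the spread, so time and heart cannot be told apart and the values that follow describe these hearts. For Apln the muscle-poor against muscle-rich difference in the 5 dpi hearts, minus that in the 3 dpi heart, was -3.00 on the log2 scale (SE 0.47, adjusted p = 3.95e-04, and 0.0987 without the section as a block). Over all genes 0.447% passed in the higher and 1.02% in the lower direction, and of the 10 members Apln alone passed. Under the block-free fit no member did, and DESeq2 gave a log2 value of -3.06 with no adjusted p for Apln. The next member by size was Vwf, at 1.07 (SE 0.51, adjusted p = 0.469). Plvap differed by 0.04 (SE 0.43) in this test, and Pecam1, Cdh5, Kdr, Flt1, Emcn, Egfl7 and Aplnr, none of them past the threshold, lay between -0.70 (Kdr) and -0.23 (Aplnr).

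The Apln signal at 3 dpi lay deep inside the infarct. Infarct spots were taken as those with r under 0.5 in connected patches of at least 10 spots, and depth as the number of array steps to the nearest spot outside. At 3 dpi Apln was at 10.5 CPM within 2 steps of the outside (the rim), 22.3 at 3 to 4 steps and 55.1 at more than 4 steps (the core; 101 UMIs in 342 spots, exact 95% Poisson interval 44.9 to 66.9). At 5 dpi the same depths had 7.93, 10.7 and 10.6 CPM in the female-labelled section and 9.51, 24.3 and 19.5 in the male-labelled section. In the rim the 3 sections thus overlapped within counting error. The 3 dpi core had the highest of these values, and its interval overlapped only that of the male-labelled section at 3 to 4 steps, which rests on 9 UMIs. Over the 3 hearts Apln was lower in the rim than in the core by a log2 fold change of -1.56 (SE 0.35, adjusted p = 0.00726). Without the 3 dpi section this was -0.54 (adjusted p = 0.391). Neutrophil and platelet genes were also highest in the 3 dpi core, their 5 and 6 genes summing to 469 and 1444 CPM there, against 258 to 285 and 824 to 907 CPM in the 5 dpi cores, and a part of these cells in the Apln values was not tested.

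**Figure D5:**
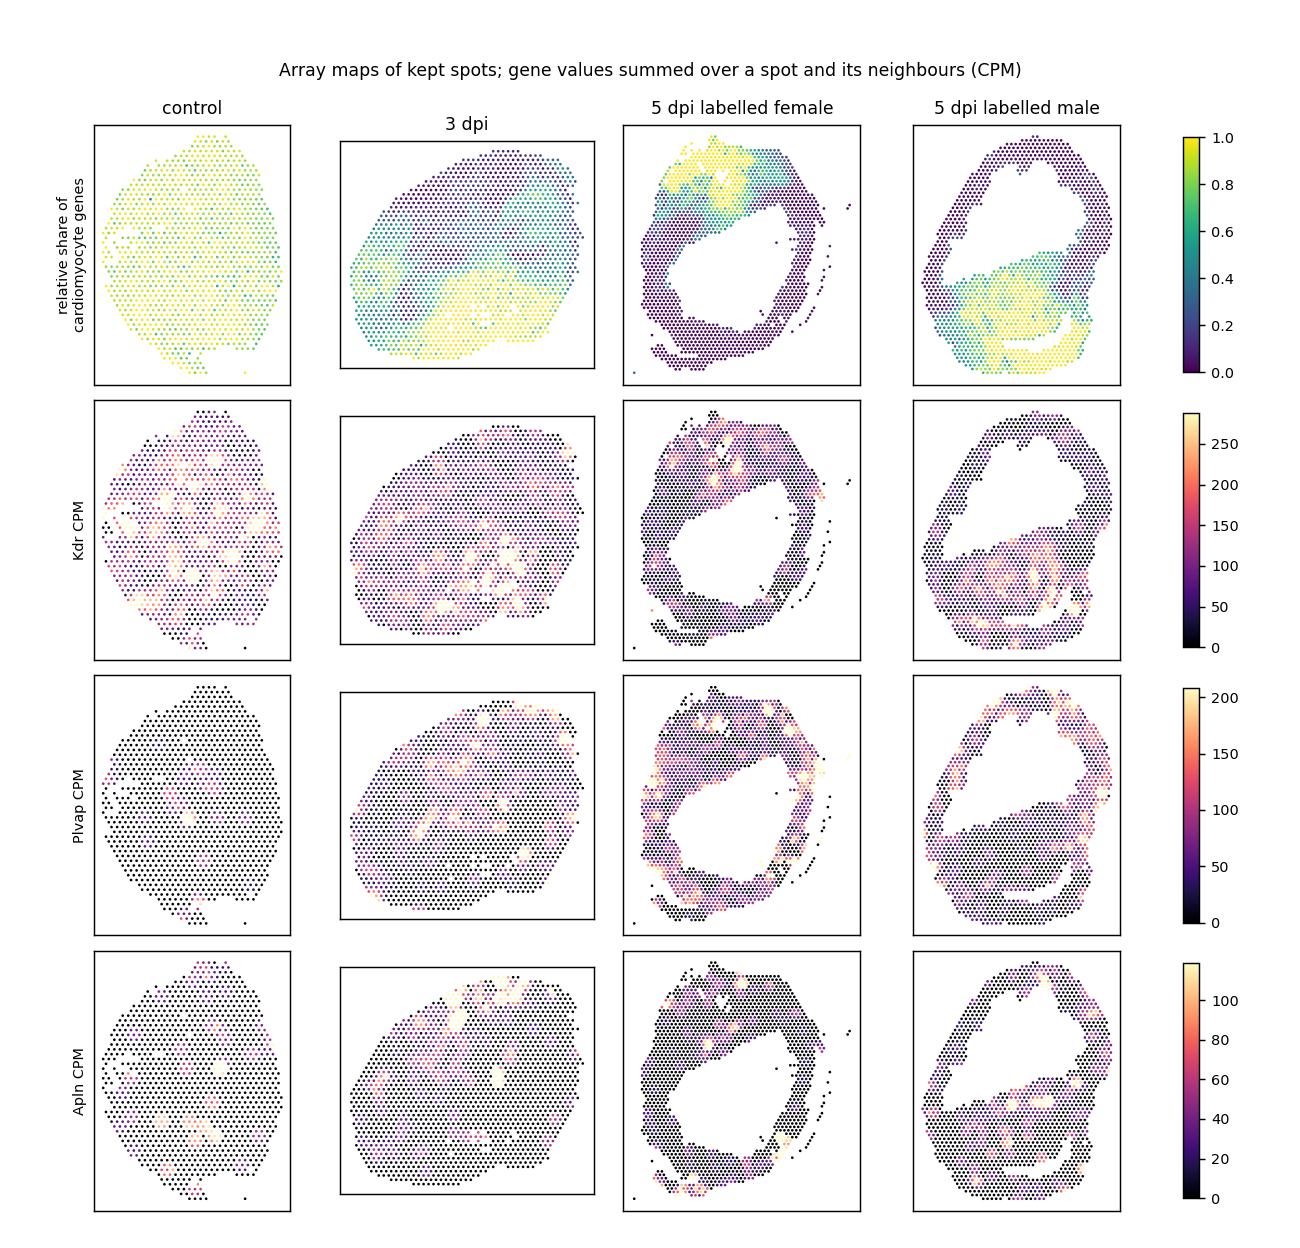
Array position of every kept spot in the 4 sections, coloured by r (top row) and by the CPM of Kdr, Plvap and Apln summed over a spot and its array neighbours, with 1 colour scale per row. Kdr is bright where r is high, Plvap is spread through the regions of low r, and the brightest Apln spots of the 3 dpi section lie where r is low. Values above the top of a scale have its top colour.

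The receptor Aplnr and Kdr differed between rim and core in the opposite direction to Apln. Aplnr was at 79.3, 92.6 and 93.2 CPM in the rim of the 3 dpi section and the female- and male-labelled 5 dpi sections, and at 69.8, 61.2 and 77.9 in the core (log2 fold change 0.52, SE 0.14, adjusted p = 0.0250). Kdr was at 79.8, 52.9 and 55.2 CPM in the rim and at 70.9, 37.6 and 41.6 in the core (log2 fold change 0.49, SE 0.15, adjusted p = 0.0383). At 3 to 4 steps Aplnr was at 88.4, 83.5 and 62.2 CPM and Kdr at 72.1, 46.0 and 40.6, so neither changed evenly with depth in every section. The Poisson intervals of rim and core overlapped for both genes, except for Aplnr in the female-labelled section. Both genes were higher in CPM in the rim in 3 of 3 sections. Per 100 spots of the male-labelled section, however, Aplnr had 52.7 UMIs in the rim and 57.6 in the core, and Kdr 31.2 and 30.8. In the fit each lost its call under 8 of 11 alternatives, among them total UMIs alone (adjusted p = 0.0938 for Aplnr and 0.130 for Kdr) and either 5 dpi section left out. All 12 of 12 cardiomyocyte genes were also higher in the rim, with a median log2 fold change of 2.36 and a summed level of 22900 to 31285 CPM against 3506 to 12462 in the core. Of the pericyte genes 5 of 8 were higher, while 5 of 5 cycling, 4 of 8 macrophage and 3 of 3 neutrophil genes tested were lower. The part of these cells in the rim values of Kdr and Aplnr was not tested. The background was 11.6% of 10473 genes higher in the rim and 6.50% lower, against 2 and 1 of the 10 members. Without the 3 dpi section 6 members were called higher in the rim and 0 lower. The shares of all genes above are not of that fit, so nothing particular to the members is read from the 6 calls. Plvap was not called by depth, with 49.2, 98.7 and 60.9 CPM in the rim and 76.4, 70.9 and 87.2 in the core (log2 fold change 0.00, SE 0.20). Pecam1, Cdh5, Flt1, Emcn, Egfl7 and Vwf did not pass by depth either, with log2 fold changes from -0.22 (Emcn) to 0.49 (Vwf).

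At the tissue edge of the muscle-rich area, where a spot lacked at least 1 of its 6 array neighbours, none of the 9 members tested passed the threshold against inner spots in the 4 sections. Apln was too low for the test. Over all 5921 genes tested 0.101% were higher and 0.0169% lower. Before adjustment 4 members had an edgeR p under 0.05. The share of all genes at that unadjusted limit is not at hand, so nothing is read from this count. Of them Vwf was higher (log2 fold change 0.92, SE 0.30, adjusted p = 0.542) and Cdh5 (-0.49), Kdr (-0.39) and Aplnr (-0.56) were lower. DESeq2 also called 0 members after adjustment. Pecam1, Flt1, Emcn, Egfl7 and Plvap lay between -0.21 (Flt1) and 0.37 (Plvap). Vwf was at 66.9 CPM in edge and 20.7 in inner spots of the control, and at 46.3 against 48.0 at 3 dpi. At 5 dpi it was at 69.0 against 102 in the female-labelled section and 33.4 against 12.1 in the male-labelled section. These values rest on 4 to 32 Vwf UMIs in edge spots. Without the female-labelled section Vwf passed, at 1.32 (adjusted p = 0.00615).

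Other genes of the endothelium were read from lists of their own, against the background of 30.8% of all genes higher and 27.1% lower in muscle-poor than in muscle-rich spots. All 13 of 13 heart capillary genes were lower in muscle-poor than in muscle-rich spots, with a median log2 fold change of -1.70 against 0.09 over all genes tested, and 11 to 13 were lower over all 13 settings tried. They include Fabp4, which carries fatty acids, at 945, 452 and 673 CPM in muscle-poor against 1195, 1660 and 2778 CPM in muscle-rich spots (log2 fold change -1.82), and Gpihbp1, which anchors lipoprotein lipase to capillaries (-1.76). The lowest were Timp4 (-4.92) and Car4 (-3.10), and Timp4 is also made by heart muscle. Of 18 other pan-endothelial genes 10 were lower and 1 was higher, with a median of -0.46. Over the settings the number lower ranged from 3 to 11 and the number higher from 1 to 4, and with total UMIs alone 3 were lower and 4 higher. The lowest were Cyyr1 (-1.43) and Cldn5, a tight junction gene (-1.13), and the gene that was higher was Erg, an ETS factor (0.87). In summed level these 18 genes had 1134, 1004 and 1214 CPM in muscle-poor and 933, 1183 and 1039 in muscle-rich spots, so that, like the 10 members, they had no common direction in CPM. Counted per spot the 10 members summed were 2.14, 1.21 and 1.81 times as high in muscle-poor as in muscle-rich spots. Per-spot values are not given for the other lists, the heart capillary genes among them.

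The smaller lists are given as counts, from which nothing particular to a list is read, and some lie near or below the background shares. Of 9 tip cell genes tested, 4 were higher in muscle-poor spots and 0 lower. The highest were Cxcr4, a chemokine receptor that leukocytes also carry (1.70), and Esm1, a secreted product of sprouting endothelium (1.16). Arterial genes had 2 of 9 higher, Fbln5 (1.05) and Gja5 (0.91), and 0 lower. Of 5 venous and endocardial genes tested 2 were higher, the adhesion molecules Selp (2.31), which platelets also hold, and Vcam1 (1.33), and 0 lower. The partners of the VEGF and apelin receptors split, with 3 of 8 higher and 3 lower. Vegfa, the ligand of Kdr and Flt1, was at 38.5, 21.4 and 22.3 CPM in muscle-poor spots and at 105, 113 and 86.2 in muscle-rich spots (log2 fold change -2.33, SE 0.18, adjusted p = 7.46e-10). Vegfb, which binds Flt1, was lower at -3.08. The lymphatic growth factor Vegfd (2.09) and Pgf, placental growth factor (1.45), were higher. Apela, the second ligand of Aplnr, had 0 UMIs in both classes of every section. Of 5 lymphatic genes tested, 3 were lower, with Prox1 (-3.12), which heart muscle also expresses, and Lyve1 (-2.40) the lowest, and Pdpn was higher (2.01). Pericyte genes, which mark the cells that wrap capillaries, had 5 of 8 lower, with Abcc9 (-2.52) and Higd1b (-1.69) the lowest, and 1 higher, Pdgfrb (0.61).

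Several of the 10 genes are also expressed outside endothelium, and cells that carry them moved with the same classes. Pecam1 is present on platelets and leukocytes and Vwf in platelets. All 8 of 8 macrophage genes were higher in muscle-poor spots, and their summed level was 7789 to 10822 CPM there against 1218 to 1675 in muscle-rich spots. The 5 neutrophil genes summed to 247 to 350 against 24.5 to 81.4 CPM, with 3 of 3 tested higher. The 6 platelet and megakaryocyte genes summed to 799 to 1172 against 133 to 178 CPM, with 2 of 3 tested higher. Most of that sum was Pf4, which cardiac macrophages also express. The platelet chemokine gene Ppbp was at 47.3, 6.89 and 6.41 CPM in muscle-poor and at 0, 0 and 2.19 CPM in muscle-rich spots of the 3 dpi section and the female- and male-labelled 5 dpi sections. Itga2b, a platelet integrin gene, was at 8.08, 6.29 and 6.65 against 3.98, 3.5 and 7.0 CPM. The other 3 platelet genes, Gp9, Gp1bb and Treml1, were at 0 to 1.75 CPM in these classes. Gp1bb was at 0 in muscle-poor spots at 3 dpi, and Gp9 (3 dpi) and Treml1 (male-labelled section) in muscle-rich spots. Cycling genes had 5 of 5 higher, fibroblast genes 5 of 7 higher and erythroid genes 5 of 5 lower. The part of these cells in the levels of Pecam1, Vwf and the other members was not tested.

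The members did not form a single profile. Over 14 combinations of section and class with at least 20 spots, the correlation of each gene with the sum of the other 9, on log2(CPM + 1), was highest for Pecam1 (r = 0.77), Egfl7 (0.76) and Emcn (0.73). It was 0.62 for Flt1, 0.50 for Apln, 0.41 for Cdh5, 0.36 for Vwf and 0.13 for Aplnr, and lay at -0.05 for Kdr and -0.20 for Plvap. The genes outside the list whose profile was most like the sum of the 10, among 5753 genes with a mean of at least 20 CPM, were Ube2g2 (r = 0.81), Rubcn (0.78), Ercc1 (0.78), Strn (0.77), Podxl (0.76), Rapgef1 (0.75), Xpr1 (0.72) and Esam (0.72). Podxl and Esam are known in endothelium, as a sialomucin and a junction adhesion molecule. The points of these correlations share hearts and libraries, and the values are descriptions.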

How the data were processed

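The deposited values are UMI counts for each gene in each spot, unnormalized, as the authors obtained them with Space Ranger 1.3.1, with spots under tissue chosen by hand. The study's methods name an Ensembl-based reference with a GFP sequence added, and the submitters' processing notes name mm10. Of 4992 array positions, spots under tissue were kept where they had 500 or more UMIs, 250 or more genes and a mitochondrial share of UMIs no higher than 50% (151 removed). In the male-labelled 5 dpi section 623 spots not under tissue were left out. The 4 matrices share 184 barcodes, which are array positions and not cells. The 13 mitochondrially encoded genes were left out of totals and tests. A median of 4967.5 to 6935 UMIs per kept spot sets the precision. Poisson and binomial intervals are exact, at 95%, and cover counting error only, and 3 counts correspond to 0.314 to 0.802 CPM in a section.

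UMIs were summed per class and section and tested with edgeR 4.0.16 (limma 3.58.1, R 4.3.3; quasi-likelihood, TMM, default filter on low counts, section as a block, threshold 0.05), with DESeq2 1.42.0 as an alternative. The block stands for the heart that the classes of a section share. Each heart gave 1 section. The scripts were tested on simulated data. Python 3.11.15, NumPy 2.4.6, SciPy 1.17.1 and pandas 2.3.3 were used for the rest, and matplotlib 3.10.9 for plots. Alternatives changed the scaling, the tool, the filters, the limits and reference of r, the block, or left out each section. In all comparisons the 10 members are named. Of other lists, the counts and at most 2 of the highest and 2 of the lowest genes past the threshold are named, while Fabp4, Gpihbp1, Apela, Pf4 and the platelet genes below it were added after their values were seen. For likeness, 8 genes were named. The members and lists were chosen with earlier results of these data known.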

Additional observations from a re-analysis of the deposited data

Results flagged for a closer look

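The change of muscle-poor over muscle-rich spots differed between 5 dpi and 3 dpi for 9 of the 75 genes tested of the endothelial lists by edgeR's test of the difference, with the single 3 dpi heart assumed to vary like the 5 dpi hearts, so that time and heart cannot be told apart. Over all genes 0.447% had such a difference in the higher and 1.02% in the lower direction. The values describe these hearts. Apln, the member among them, had a difference of -3.00 on the log2 scale, with an adjusted p of 0.0987 without the section as a block and none from DESeq2. The heart capillary genes Meox2 (-2.28), Fabp4 (-1.56), Cav1 (-1.23) and Gpihbp1 (-1.17) were relatively lower in muscle-poor spots of the 5 dpi hearts than of the 3 dpi heart. Cardiomyocyte genes moved by about as much, with 8 of 12 lower and a median of -1.25, and made up 1.08% of UMIs in muscle-poor spots at 3 dpi against 0.359% and 0.50% in the female- and male-labelled 5 dpi sections. Their part in these values was not tested. Meox2 was at 11.8 CPM in muscle-poor and 5.68 in muscle-rich spots at 3 dpi, against 5.84 and 14.9 in the female-labelled 5 dpi section and 6.18 and 15.3 in the male-labelled section. Nid2, a basement membrane gene on the tip cell list, differed by -1.50. In the other direction were Fbln5 (2.73), an elastic fibre gene that fibroblasts also express, Ccl21a (1.79), a lymphatic chemokine, and Lrg1 (1.73). Fbln5 was at 27.7 CPM in muscle-poor spots at 3 dpi and at 167 and 184 at 5 dpi.

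In the male-labelled 5 dpi section, 623 spots that the position file does not mark as under tissue held UMIs of the members, summing to 782 CPM against 746 in the control. For 3 of the 10 members the level was above that of the control section, a count with no share of all genes at hand. Plvap was at 95.6 CPM there against 7.75 in the control, Emcn at 79.0 against 50.2 and Vwf at 68.2 against 32.1, the exact 95% Poisson intervals not overlapping. Kdr, at 52.5 against 122 CPM, Cdh5, at 112 against 142, and Flt1, at 23.3 against 43.3, were below the control. The infarct spots under tissue in the same section lay on the same side of the control for these genes. They had Plvap at 83.7 CPM, Emcn at 69.6, Vwf at 63.2, Kdr at 43.0, Cdh5 at 120 and Flt1 at 35.3. The 623 spots entered no comparison.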

How the results depend on the processing

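The higher Plvap and lower Kdr in muscle-poor than in muscle-rich spots kept direction and threshold under all 12 fitted alternatives, with log2 fold changes of 0.84 to 1.60 for Plvap and -1.91 to -1.24 for Kdr, and likewise between intermediate and muscle-rich spots under all 11. In UMIs per spot, which were not fitted, Kdr at 3 dpi was 1.05 times as high in muscle-poor spots. Pecam1 lost its call under 3 of 12 alternatives, Cdh5 under 4 and Flt1 under 2, and all 3 stayed negative. Egfl7 gained a call, as lower, under 5 of 12, and Vwf and Apln each under 1 of 12. Depth bears most on Apln, which had 13 to 127 UMIs in muscle-poor or muscle-rich spots of an infarcted section, and the cause of the changes below was not tested.

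The number of members lower in muscle-poor than in muscle-rich spots was 4, and became 1 with library size alone, 2 with cardiomyocyte genes out of the total, and 1 to 6 when 1 section was left out (1 without the female-labelled section). Between intermediate and muscle-rich spots 2 members were lower, against 1 with library size alone, without cardiomyocyte genes or with r against the control section, 4 with no filter on low counts, and 1 to 3 when 1 section was left out (1 without either 5 dpi section, 3 without 3 dpi). Between muscle-poor and intermediate spots 0 were higher, against 1 with no filter, and 1 was lower, against 0 with library size alone, without cardiomyocyte genes, with DESeq2 or with limits of 0.2, 0.4 and 0.7, 3 with no filter, 4 with r against the control section, 2 with all spots under tissue, and 0 to 2 when 1 section was left out. The time difference had 1 member lower, against 0 with DESeq2, which gave Apln no adjusted p. In the rim 2 were higher, against 0 with library size alone, without cardiomyocyte genes, with DESeq2 or with an r limit of 0.4, 1 with no filter or with r against the control section, and 0 to 6 when 1 section was left out (0 without either 5 dpi section, 6 without 3 dpi). In the rim 1 was lower, against 0 with DESeq2 or r against the control section, and 0 to 1 when 1 section was left out (0 without 3 dpi). At the edge 0 were higher, and 0 to 1 when 1 section was left out (1 without the female-labelled section). For whole sections 2 were higher, against 1 without cardiomyocyte genes and 8 in UMIs per spot. By CPM in all 3 sections 1 member was higher in muscle-poor spots, against 6 in UMIs per spot and 2 with all spots under tissue, and 1 was lower, against 2 without cardiomyocyte genes and 0 in UMIs per spot. Shares of all genes are not set beside the counts of these alternatives, and none is read as particular to the members.

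The section is the block, since the classes of a section share a heart. With no replicate block, the members lower in intermediate spots went from 2 to 1, those lower in muscle-poor against intermediate spots from 1 to 0, the time difference from 1 to 0, and in the rim from 2 to 0 higher and from 1 to 0 lower. No other count of members moved by over 1.5 times without the block. The time difference could not be fitted with a section left out, as no residual degrees of freedom remain.

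The sign changed only for members that were not called. For muscle-poor against muscle-rich spots, library size alone turned Emcn from -0.16 to 0.27, Egfl7 from -0.32 to 0.11, Vwf from -0.25 to 0.16, Aplnr from -0.14 to 0.29 and Apln from -0.15 to 0.29. Without cardiomyocyte genes these were 0.14 for Emcn, 0.036 for Vwf, 0.16 for Aplnr and 0.16 for Apln, and with r against the control section 0.062 for Apln. With 1 section left out Emcn ranged from -0.30 to 0.032, Vwf from -0.95 to 0.13 and Apln from -1.06 to 0.39. For intermediate against muscle-rich spots, library size alone gave Flt1 0.015 and Egfl7 0.11, the total without cardiomyocyte genes Egfl7 0.022, and r against the control section Egfl7 0.046 and Vwf -0.031. DESeq2 gave Emcn -0.0044 and Aplnr -0.018, no replicate block Emcn -0.0042 and Aplnr -0.011, and limits of 0.2, 0.4 and 0.7 Emcn -0.069 and Aplnr -0.11. With 1 section left out Emcn ranged from -0.034 to 0.092, Aplnr from -0.081 to 0.073 and Vwf from -0.25 to 0.68. For muscle-poor against intermediate spots, library size alone gave Cdh5 0.13 and Egfl7 0.00080 and the total without cardiomyocyte genes Cdh5 0.086. Plvap was -0.0052 with DESeq2, -0.014 with no filter, -0.17 with other limits and -0.027 with all spots under tissue. With 1 section left out Cdh5 ranged from -0.052 to 0.022, Egfl7 from -0.34 to 0.028 and Plvap from -0.22 to 0.31. For the time difference Plvap was -0.014 with library size alone, -0.0023 without cardiomyocyte genes and -0.0069 with r against the control section. In the rim, library size alone gave Pecam1 -0.0017, a limit of 0.4 gave Pecam1 -0.067 and Cdh5 0.015, r against the control section Cdh5 0.19 and Emcn 0.043, and all spots under tissue Cdh5 0.021. With 1 section left out Pecam1 ranged from -0.16 to 0.48, Cdh5 from -0.17 to 0.13, Plvap from -0.42 to 0.25, Flt1 from -0.082 to 0.68 and Egfl7 from -0.018 to 0.58. At the edge Emcn was 0.030 with r against the control section, and with 1 section left out Egfl7 ranged from -0.25 to 0.13 and Plvap from -0.12 to 0.69.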
